A study of Mus musculus with 12 samples.

Results

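Adipogenic transcription factors are the proteins that switch the genes of a fat cell on in sequence, and 10 of their genes were followed here: the C/EBP genes Cebpa, Cebpb and Cebpd, the Krüppel-like factors Klf2, Klf4, Klf9 and Klf15, the zinc finger gene Zfp423, and the early B-cell factors Ebf1 and Ebf2. They were chosen by name, as factors of the textbook cascade and with earlier results of these data known, and all 10 were among the 31053 genes of the deposited count matrices. The matrices come from single-cell RNA sequencing of the stromal vascular fraction (SVF), the cells left when the floating adipocytes are removed from digested fat, of epididymal (eWAT) and inguinal (iWAT) white adipose tissue of male mice aged 12 weeks. Each depot had 6 libraries, with biological replicates 1 and 2 of each of 3 groups. WT-Veh libraries are from C57BL/6J mice given methylcellulose vehicle, ob/ob-Veh libraries from Lepob/Lepob mice, which lack leptin and become obese, given the same vehicle, and ob/ob-Rosi libraries from Lepob/Lepob mice gavaged each morning and evening over 3 days with 30 mg/kg of rosiglitazone, an agonist of PPARγ. There was no WT group given rosiglitazone, so the drug was compared with vehicle in obese mice only.

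In the usual account of fat cell formation, C/EBPβ and C/EBPδ are induced within hours of a hormonal stimulus and switch on PPARγ and C/EBPα, which then maintain each other and drive the genes of lipid storage. Klf4 acts upstream of Cebpb, Klf9 and Klf15 favour later steps, and Klf2 holds preadipocytes back by repressing Pparg. Zfp423 commits progenitors to the white lineage, Ebf1 raises Cebpa and Pparg, and Ebf2 marks progenitors and directs the brown and beige programme. Cebpb, Cebpd, Klf2 and Klf4 also belong to the genes that many cells induce quickly under stress, including during tissue dissociation.

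Promoter sequence was available from RefSeq (GRCm38.p6) for 8 of the 10 genes, as 250 bases before to 50 after the start, and not for Cebpd or Ebf2. The half-site of the cyclic-AMP response element, TGACG on either strand, is a common feature of rapidly induced promoters and lay in 20.8% of the 32851 promoters in the table. It was found in a promoter of Cebpb, Klf2, Klf4, Klf9, Klf15 and Ebf1, and not in those of Cebpa or Zfp423. Stretches of 30 bases around it that end before the start are shown for Cebpb, Klf2 and Klf4, the 3 members with promoter sequence whose levels ran along with immediate early genes over the progenitor clusters of both depots, with the half-site in capitals. Those of Cebpb lie at chr2:167688723-167688752 and chr2:167688850-167688879 on the plus strand, with the match beginning 180 and 53 bases before the start, that of Klf2 at chr8:72318812-72318841 on the plus strand, 241 bases before it, and that of Klf4 at chr4:55532690-55532719 on the minus strand, 232 bases before it. A further match of Cebpb, nearer the start than these, is not shown.
Cebpb, first match: ggggcgggctggCGTCAcccgcgtccgtgg
Cebpb, second match: gtggccgggcaaTGACGcgcaccgaccggg
Klf2: ctggtttgtTGACGccgtcgccatagggac
Klf4: ctgcctggctggCGTCAcggcctggccccg
The letters describe the window only. The AP-1 site TGANTCA (7.81% of promoters) was found in the Klf9 window alone and the C/EBP site TTGCNNAA (10.8%) in a window of Zfp423 alone. The letters of the TATA box, TATAAA (13.6%), began 30 bases before the start of Cebpa. In the Cebpb window they began 21 bases after the start. The CCAAT box (37.4%) was found for Klf9 and Klf15.

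The libraries held 20132553 to 92475986 UMIs (unique molecular identifiers, each counting an RNA molecule once), and 126095 cells passed the filters, with a median of 1132 to 4961 UMIs per cell. Clusters were named from marker genes, and the adipocyte progenitor cells (APC-like, Pdgfra+ and Dcn+) numbered 17203 in eWAT and 19222 in iWAT. Pdgfra, the receptor that defines these cells, stood at 270 to 732 CPM (UMIs of the gene scaled to 1000000 UMIs of the class) in eWAT and 362 to 831 in iWAT, with Ptprc, the pan-leukocyte marker, at 6.94 to 20.4 and 7.28 to 59.6. APC-like cells were divided into progenitor-like (Dpp4+ Pi16+) and preadipocyte-like clusters, 2848 and 11922 cells in eWAT and 11669 and 7433 in iWAT. The iWAT library labelled WT-Veh replicate 1 stood apart: it gave 285 APC-like cells, 1.67% of its cells, and 48.02% of its cells stayed unnamed. Lep RNA, raised in ob/ob fat as a rule, was at 30.5 and 79.3 UMIs per 100 UMIs of Adipoq in the eWAT libraries labelled WT-Veh and at 3.59 and 10.3 in those labelled ob/ob-Veh, an order opposite to that rule. Lep itself overlapped between these groups, at 0.824 and 2.35 CPM of the whole library against 0.149 and 1.25, and the Adipoq level was the higher in ob/ob-Veh (4.16 and 12.1 against 2.70 and 2.97). The eWAT libraries labelled ob/ob-Rosi had Lep ratios of 259 and 361. In iWAT the WT-Veh (20.5 and 31.4) and ob/ob-Veh libraries (33.3 and 14.0) overlapped, and those of ob/ob-Rosi were at 164 and 139. These ratios rest on 4 to 318 Lep UMIs per library of a fraction from which adipocytes were removed, and whether they bear on the labels was not tested. Every direction below is therefore that of the libraries as labelled. No more than 99 barcodes, 1.05% of the smaller library, were shared by any pair of libraries.

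Across the classes the 10 genes divided into those highest in APC-like cells and those shared with other cells. Ebf2 was the most restricted. Its median over libraries was 129 CPM in eWAT APC-like cells and 270 in iWAT, against 14.9 and 18.3 in endothelial (EC-like) cells and 1.81 and 4.25 in macrophage-like cells. With every cell thinned to 700 UMIs, Ebf2 was seen in 8.31% of eWAT APC-like cells (33.9% unthinned) and in 0.206% of macrophage-like cells (0.857% unthinned), which should lack it. The median UMIs per cell of the libraries ran from 1312 to 6590 in the former and from 2444 to 6124 in the latter.

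Ebf1 was at 508 and 712 CPM in APC-like cells and at 415 and 1074 in B-like cells, where it is a lineage factor, with 6.06 and 21.3 in macrophage-like cells. Cebpd, an early C/EBP, had medians of 590 and 541 in APC-like cells, 171 and 107 in EC-like cells and 74.0 and 123 in macrophage-like cells. Both genes, like Ebf2, had a higher lowest value in APC-like libraries of eWAT than their highest in EC-like and macrophage-like libraries of that depot. Klf9, a glucocorticoid-responsive factor, was at 733 and 556 in APC-like, 440 and 415 in EC-like and 133 and 240 in macrophage-like cells, and in iWAT its APC-like and EC-like ranges overlapped.

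The remaining genes were shared or low. Klf2, an endothelial quiescence factor, was at 446 and 626 CPM in APC-like and 578 and 525 in EC-like cells, ranges that overlapped. Klf4 was at 673 in eWAT and 2035 in iWAT APC-like cells. Cebpb was higher in macrophage-like (592 and 595) than in APC-like cells (391 and 547) by median, with overlapping ranges, and reached 2552 in the neutrophil-like cells of iWAT.

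Cebpa, which neutrophils, macrophages and adipocytes all use, stood at 24.2 and 19.3 CPM in APC-like cells against 79.9 and 81.7 in macrophage-like cells. At 700 UMIs per cell it was seen in 1.35% of eWAT APC-like cells (10.3% unthinned) and in 1.03% of T/NK-like cells (4.58% unthinned), which do not use it. The median UMIs of the T/NK-like libraries lay between 856 and 2476. By CPM the T/NK-like cells were at 24.5 and 15.9, near the APC-like level, whereas B-like cells were at 11.9 and 5.47. How much of the APC-like Cebpa is free RNA was not tested. Klf15 was at 25.3 and 15.8 CPM and Zfp423 at 6.79 and 11.9. Thinned shares were 1.64% for Klf15 and 0.466% for Zfp423 in eWAT APC-like cells, against 0.107% and none in the median T/NK-like library (0.819% and 0.218% unthinned). Zfp423 was no higher in APC-like than in EC-like cells by median (11.8 and 15.7). The classes come from clustering these cells, so these levels are a description without a test. The members themselves were left out of the genes used for clustering.

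**Figure D1:**
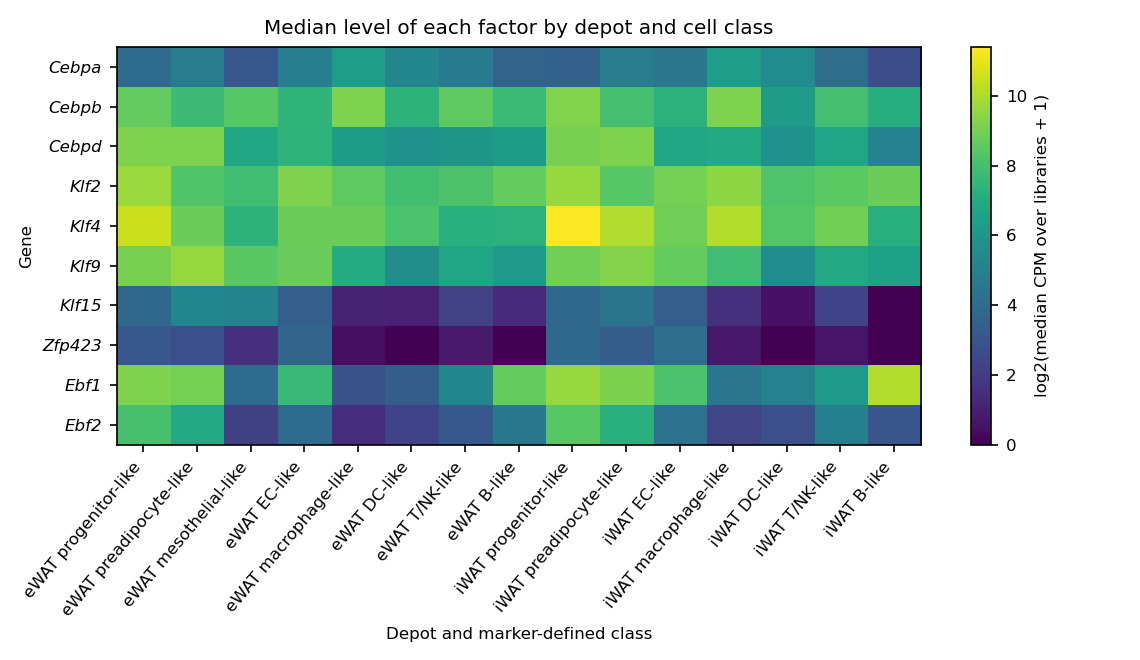
Heatmap of the median level over libraries, as log2(CPM + 1), of the 10 genes (rows) by class in eWAT and iWAT (columns). Columns are progenitor-like, preadipocyte-like, mesothelial-like, EC-like, macrophage-like, dendritic (DC-like), T/NK-like and B-like cells, where enough libraries had them. Ebf2 is highest in the progenitor-like and preadipocyte-like columns, whereas Cebpa is highest in the macrophage-like columns, at 79.9 and 81.7 CPM. All APC-like cells together (Ebf2 at 129 and 270 CPM) have no column.

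Within a library, 3 genes were higher in progenitor-like than in preadipocyte-like cells in all 6 libraries of both depots. These were Ebf2 (median ratio 1.89 in eWAT and 2.27 in iWAT), Klf2 (2.14 and 2.09) and Klf4 (3.08 and 2.40). Over the eWAT libraries the Klf2 ratio ran from 1.67 to 6.06. A cluster of eWAT, mostly of ob/ob-Veh cells and high in Klf2, Klf4 and immediate early genes, was in neither subclass. The ratios thus depend on how the subclasses were drawn. Klf9 was higher in preadipocyte-like cells in 6 of 6 libraries of each depot (ratio of preadipocyte-like to progenitor-like 1.46 and 1.26). Klf15 was higher there in 5 of 6 and 6 of 6 libraries (2.43 and 1.86) and Cebpa in 5 of 6 and 6 of 6 (1.96 and 2.31). Cebpb was higher in progenitor-like cells in 6 of 6 iWAT libraries (2.21) and in 3 of 6 of eWAT. Ebf1 was the higher in progenitor-like cells in 5 of 6 libraries of each depot, by 1.11 and 1.37. Cebpd had no common direction, with 3 of 6 libraries either way in both depots, and neither had Zfp423, with 3 of 6 and 4 of 6.

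In eWAT APC-like cells Ebf2 was the member that differed most between the groups. It was at 61.0 and 145 CPM in the libraries labelled WT-Veh, at 327 and 384 in ob/ob-Veh and at 112 and 77.7 in ob/ob-Rosi. Both ob/ob-Veh libraries lay above all others, and the WT-Veh and ob/ob-Rosi libraries overlapped. Ebf2 rose in ob/ob-Veh against WT-Veh by 1.75 ± 0.37 on the log2 scale (SE, adjusted p = 0.0168, edgeR's quasi-likelihood test with Benjamini-Hochberg adjustment over all genes) and fell by 1.86 ± 0.37 with rosiglitazone (adjusted p = 0.0118). The 2 comparisons share the ob/ob-Veh libraries, so a high value there enters both with opposite sign. The first call was lost without WT-Veh replicate 1 or without ob/ob-Veh replicate 1, and the second without ob/ob-Rosi replicate 2, each leaving 1 library in a group.

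Klf2, the repressor of Pparg, was at 287 and 429 CPM in WT-Veh, 1020 and 703 in ob/ob-Veh and 463 and 368 in ob/ob-Rosi. Cebpd was at 580 and 599 in lean, 1294 and 1029 in obese and 509 and 410 in drug-treated libraries. The ob/ob-Veh libraries were the highest for both genes, with no overlap. Klf2 rose in ob/ob-Veh (log2 1.25 ± 0.32, adjusted p = 0.0422) and its decrease with rosiglitazone was not called (−1.04 ± 0.32, adjusted p = 0.0764). Cebpd showed the reverse, with a call for rosiglitazone (−1.32 ± 0.29, adjusted p = 0.0185) and none for ob/ob-Veh against WT-Veh (0.94 ± 0.28, adjusted p = 0.0754). Klf4, upstream of Cebpb in the cascade, followed the same order without a call. It stood at 385 and 726, 1242 and 1016, and 620 and 437 CPM, with changes of 1.01 ± 0.34 (adjusted p = 0.105) and −1.07 ± 0.34 (adjusted p = 0.0794). DESeq2 called Cebpd, Klf2, Klf4 and Ebf2 in both comparisons. All shares of genes called that are printed in this text are those of edgeR. The DESeq2 counts are therefore not read as stronger than those of edgeR. The Klf2 call was lost without either WT-Veh library or without ob/ob-Veh replicate 1, and also with finer clusters (adjusted p = 0.0688) and with cells assigned singly (adjusted p = 0.0544). The Cebpd call was lost without ob/ob-Veh replicate 1, without ob/ob-Rosi replicate 2 and with mixed droplets left out (adjusted p = 0.0591). With the replicate number as a block, Cebpd was called for ob/ob-Veh too (0.92 ± 0.27, adjusted p = 0.0379), and Klf2 (−1.02 ± 0.31, adjusted p = 0.0399) and Klf4 (−1.07 ± 0.33, adjusted p = 0.0428) for rosiglitazone.

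The make-up of the APC-like class differed along with these levels. Progenitor-like cells, in which Klf2, Klf4 and Ebf2 were the higher, were 230 of 3576 and 128 of 1678 eWAT APC-like cells in WT-Veh, 1572 of 4048 and 627 of 2989 in ob/ob-Veh, and 227 of 2448 and 64 of 2464 in ob/ob-Rosi. The ob/ob-Veh libraries held the most, and the part of this in the changes over the whole class was not tested.

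Over the list, 2 of the 10 members were called for each comparison by edgeR, and over all genes tested 7.34% were called for ob/ob-Veh against WT-Veh and 8.28% for rosiglitazone. The block gave 3 and 4 members, where 12.9% and 14.3% of all genes were called. Between ob/ob-Rosi and WT-Veh no member was called by edgeR or DESeq2 and none had an unadjusted p under 0.05, and percent called over all genes was 0.

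Of the other members, all but Zfp423 overlapped between the groups or moved little. Cebpb was at 645 and 201 CPM in WT-Veh, 649 and 410 in ob/ob-Veh and 372 and 209 in ob/ob-Rosi, so the WT-Veh replicates differed more than any pair of group means (log2 changes 0.26 ± 0.53 and −0.86 ± 0.53). Cebpa lay between 16.3 and 29.3 CPM in the 6 libraries, Klf9 between 553 and 894, Ebf1 between 386 and 687 and Klf15 between 16.7 and 43.9. Zfp423 was at 4.00 and 6.23, 9.54 and 10.7, and 7.34 and 5.33 CPM. Its ob/ob-Veh libraries were the highest, and the change of 0.92 ± 0.33 was not called (adjusted p = 0.133).

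**Figure D2:**
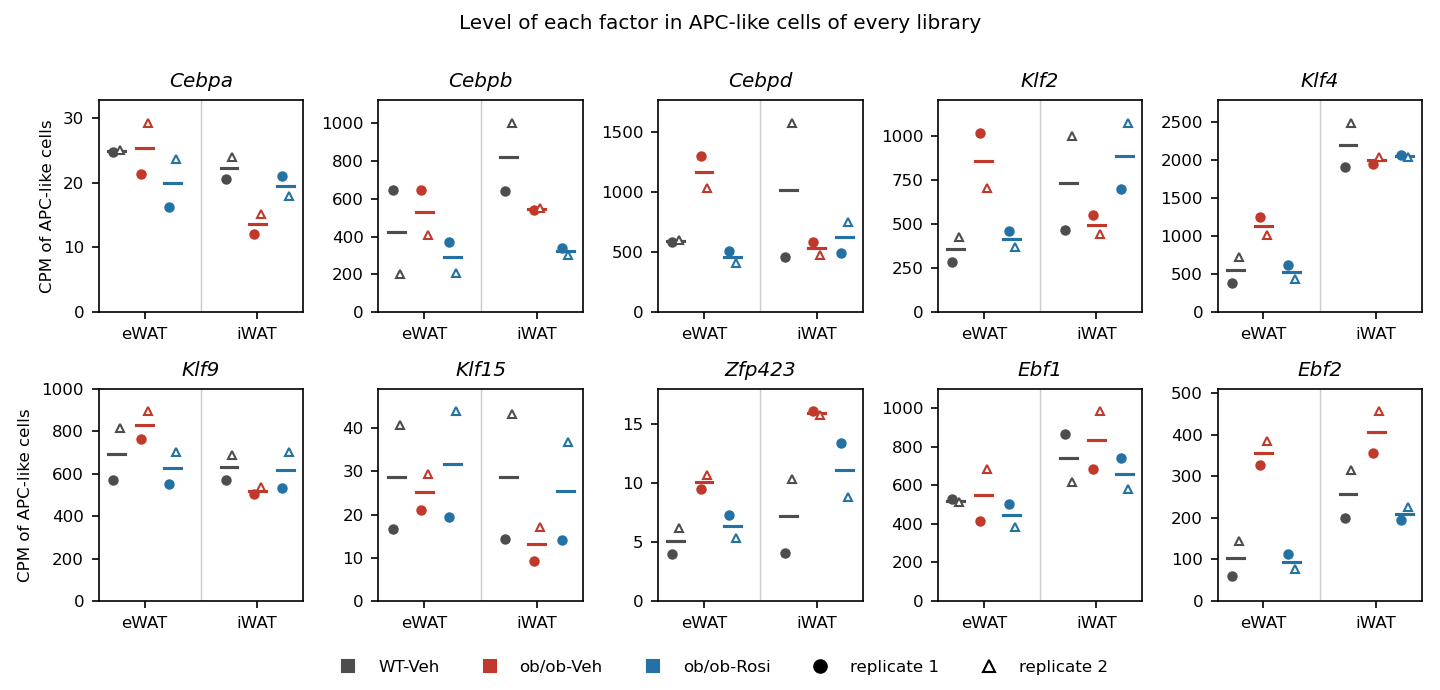
Levels of the 10 genes in APC-like cells, in CPM of the class (vertical axes, each panel with its own scale), with a point for each library by depot and group. In eWAT the ob/ob-Veh points of Ebf2 (327 and 384), Klf2, Cebpd, Klf4 and Zfp423 lie above all others, and in iWAT the highest points of Cebpb, Cebpd and Klf15 are WT-Veh replicate 2.

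**Figure D3:**
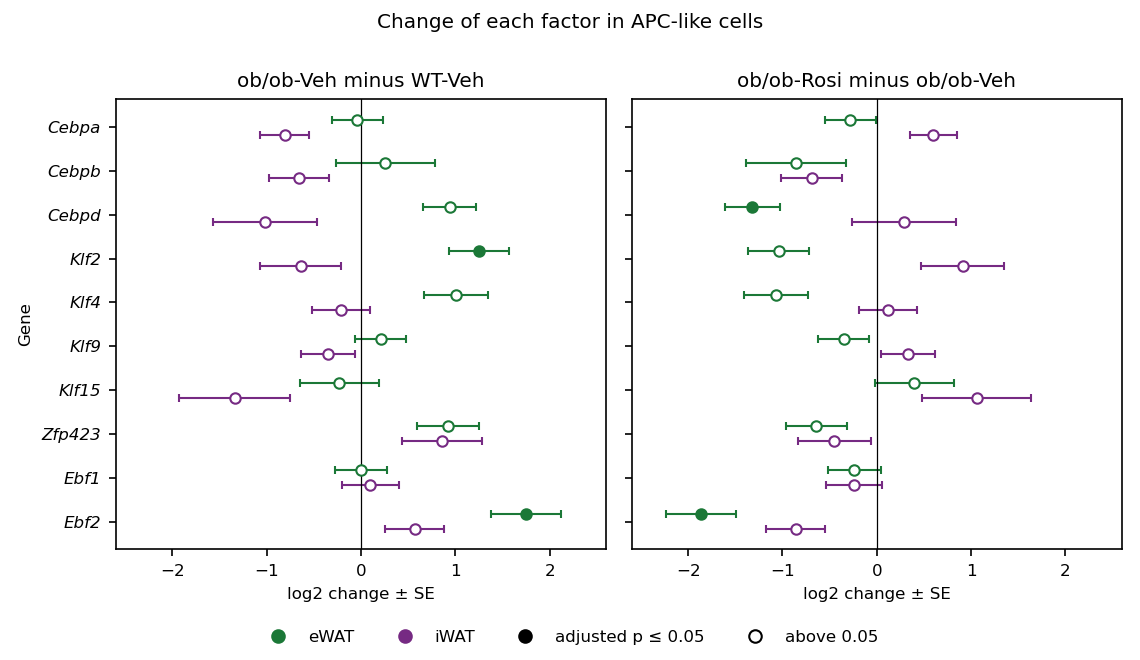
Log2 change with its standard error (horizontal axis) of each gene in APC-like cells of both depots for ob/ob-Veh against WT-Veh and for ob/ob-Rosi against ob/ob-Veh, with filled symbols where the adjusted p was at most 0.05. Filled symbols are those of Ebf2 and Klf2 for the former and of Ebf2 and Cebpd for the latter, all in eWAT.

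Immediate early genes, which cells induce during dissociation, moved with these members. Their summed level in eWAT APC-like cells was 9009 and 10847 CPM in WT-Veh, 18599 and 16139 in ob/ob-Veh and 9893 and 6823 in ob/ob-Rosi, so ob/ob-Veh was the highest group. Of 17 such genes tested 7 rose in ob/ob-Veh and 7 fell with rosiglitazone (median log2 change 0.67 and −1.02, beside 7.34% and 8.28% of all genes called), among them Myc (2.11 and −2.63), Socs3 (1.70 and −2.29), Hspa1b (1.69 and −1.50) and Zfp36 (1.67 and −2.08). Macrophage markers in the same cells ran the other way, summing to 2353 and 1677, 272 and 525, and 1983 and 1716 CPM, and 9 of 10 fell in ob/ob-Veh and 9 of 10 rose with rosiglitazone (median −2.50 and 2.17, against the same shares of all genes). The part of either in the changes of Ebf2, Klf2 and Cebpd was not tested. In eWAT EC-like cells of the same libraries the summed immediate early level was 5958 and 7313, 8180 and 7886, and 4941 and 5911.

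The members called were not the same in the subclasses of eWAT, but the subclasses were not compared by a test, so this is no difference in itself. Ebf2 in preadipocyte-like cells was at 58.3 and 137 CPM in WT-Veh, at 300 and 325 in ob/ob-Veh, and at 97.0 and 74.5 after rosiglitazone. It was at 109 and 261, 370 and 538, and 273 and 230 in progenitor-like cells. In both subclasses the ob/ob-Veh libraries were the highest. Ebf2 rose in ob/ob-Veh in each (1.56 ± 0.35, adjusted p = 0.0190, and 1.26 ± 0.33, adjusted p = 0.0445) and fell with rosiglitazone in preadipocyte-like cells (−1.73 ± 0.35, adjusted p = 0.0111). In progenitor-like cells Cebpd was at 466 and 705, 1046 and 845, and 357 and 329 CPM, and it fell with rosiglitazone (−1.46 ± 0.28, adjusted p = 0.00860). With each of the 6 libraries left out in turn, the progenitor-like Ebf2 call was lost in every case but that of WT-Veh replicate 2. It was also lost with library size alone (adjusted p = 0.0566) and coarser clusters (adjusted p = 0.0704). Leaving mixed droplets out kept only 2 progenitor-like cells of WT-Veh replicate 2 and 4 of ob/ob-Rosi replicate 2, under the minimum per library. WT-Veh and ob/ob-Rosi then had 1 library each, and the Ebf2 change for ob/ob-Veh was 2.30, without a call. The progenitor-like Cebpd call did not survive the omission of ob/ob-Veh replicate 1 or of ob/ob-Rosi replicate 2. Nor was it made with mixed droplets left out (change −1.06, with the same single libraries). With the replicate block Cebpb was also called in progenitor-like cells for rosiglitazone (−1.29 ± 0.26, adjusted p = 0.00148). In preadipocyte-like cells the Ebf2 call for ob/ob-Veh was lost without WT-Veh replicate 1 or either ob/ob-Veh library, and that for rosiglitazone without ob/ob-Veh replicate 1 or without ob/ob-Rosi replicate 2.

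Counted over members, 1 of 9 was called in progenitor-like cells for ob/ob-Veh (4.03% of all genes) and 1 of 9 for rosiglitazone (2.51%), where Zfp423 was too low to be tested. In preadipocyte-like cells 1 of 10 was called for ob/ob-Veh (8.59%) and 2 of 10 for rosiglitazone (8.89%). With the block 6.73% and 5.39% of all genes were called in progenitor-like cells. No member was called between ob/ob-Rosi and WT-Veh in either by edgeR or DESeq2 (2 and 0 at an unadjusted p under 0.05), with 0.0123% of all genes called in progenitor-like and 0% in preadipocyte-like cells.

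Immediate early genes in progenitor-like cells of eWAT summed to 6966 and 8406 CPM in WT-Veh, 17808 and 16618 in ob/ob-Veh and 8668 and 4354 in ob/ob-Rosi, with ob/ob-Veh again the highest group. Of this list 6 of 17 rose in ob/ob-Veh there and 5 fell with rosiglitazone (median 0.94 and −1.04). Macrophage markers ran the other way in both subclasses, at 2097 and 1667, 266 and 511, and 1906 and 1933 CPM in progenitor-like cells, where 7 of 9 fell in ob/ob-Veh and 7 rose with the drug. They were at 2360 and 1651, 319 and 586, and 1977 and 1703 CPM in preadipocyte-like cells, where 9 of 10 fell and 9 rose. The part of these genes in the subclass calls of Ebf2, Cebpd and Klf2 was not tested.

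Klf2 depended on how the subclass was drawn. In eWAT preadipocyte-like clusters it was at 272 and 409 CPM in WT-Veh, 224 and 201 in ob/ob-Veh and 449 and 364 in ob/ob-Rosi. The ob/ob-Veh libraries were the lowest, opposite to their place among all APC-like cells, and Klf2 rose with rosiglitazone (1.07 ± 0.27, adjusted p = 0.0355), a call that held in 5 of 10 alternatives. It was lost without either ob/ob-Veh library or ob/ob-Rosi replicate 2, with library size alone (adjusted p = 0.0663), thinned cells (adjusted p = 0.264) and mixed droplets left out (adjusted p = 0.0650). Where cells were assigned singly from Pdgfra, Dpp4 and Pi16, the same changes were 1.15 ± 0.29 for ob/ob-Veh (adjusted p = 0.0413) and −0.85 ± 0.29 for rosiglitazone (adjusted p = 0.129). Summed immediate early genes in the preadipocyte-like clusters were at 9507 and 11784, 7269 and 8612, and 10409 and 7077 CPM, without the ob/ob-Veh excess of the whole class, and of 17 genes 1 rose and 3 fell in ob/ob-Veh (median −0.55) and 1 rose and 1 fell with rosiglitazone (median 0.38).

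The clusters behind this were split by group, in that few cells of the ob/ob-Veh libraries shared a preadipocyte-like or progenitor-like cluster with the other libraries. A cluster led by Il6, Adamts4 and Socs3, which met neither subclass definition, held 837 and 468 cells of the ob/ob-Veh libraries of eWAT, and the preadipocyte-like cluster of ob/ob-Veh held 1448 and 1703. In the former Cebpd was at 2597 CPM, Klf2 at 1449, Klf4 at 1303 and Ebf2 at 344, beside 34472 CPM of immediate early genes. In the latter the values were 633, 212, 443 and 315, beside 7966. Cebpd and Klf2 thus differed several-fold between these clusters of the same libraries whereas Ebf2 was near the same level. In the largest preadipocyte-like cluster of the other libraries, with 2013 cells of WT-Veh replicate 1 and 1327 of ob/ob-Rosi replicate 1, Cebpd was at 260, Klf2 at 114 and Ebf2 at 73.8, beside 3580 of immediate early genes. Another preadipocyte-like cluster of those libraries had 19092 of immediate early genes with Cebpd at 922 and Klf2 at 783, and Ebf2 at 108.

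Over the 12 APC-like clusters of each depot that had enough cells and were not led by genes of another class, the log2 level of Cebpd had a correlation of 0.92 with that of summed immediate early genes in eWAT and 0.64 in iWAT. It was 0.92 and 0.76 for Klf2, 0.89 and 0.72 for Cebpb, 0.84 and 0.72 for Klf4 and 0.64 and 0.62 for Ebf2. For Cebpa (−0.13 and −0.24), Ebf1 (−0.24 and −0.36), Klf15 (−0.49 and −0.16) and Klf9 (0.20 and 0.00) it was low or negative, and for Zfp423 it was 0.76 and 0.07. These are descriptions across clusters that share libraries and depth, with no test.

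**Figure D4:**
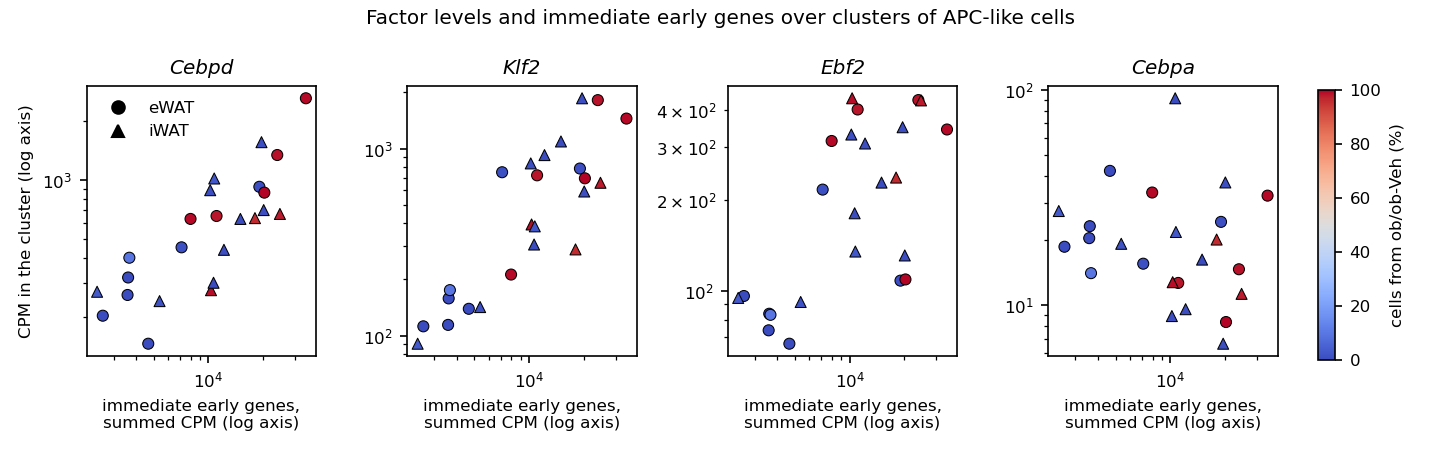
Level of Cebpd, Klf2, Ebf2 and Cebpa (CPM, vertical log axes) against the summed level of immediate early genes (CPM, horizontal log axis) in the APC-like clusters of both depots, coloured by the percentage of a cluster's cells from ob/ob-Veh libraries. In eWAT Cebpd and Klf2 climb with the immediate early sum (r = 0.92 for each), and for Ebf2 the preadipocyte-like, progenitor-like and Il6-led clusters of ob/ob-Veh lie at 315 to 431 CPM, with a further ob/ob-Veh cluster at 109.

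In iWAT no member was called in APC-like, progenitor-like or preadipocyte-like cells for obesity, for the drug or between ob/ob-Rosi and WT-Veh by edgeR. For these 3 comparisons in turn, unadjusted p was under 0.05 for 1, 2 and 1 members in APC-like cells, for 2, 1 and 1 in progenitor-like cells, and for 2, 3 and 0 among preadipocyte-like cells. DESeq2 called 0, 0 and 1, then 1, 1 and 1, then 0, 1 and 0. Over all genes edgeR called 0.357%, 1.63% and 0% of APC-like, 1.26%, 3.23% and 0% of progenitor-like and 0.289%, 1.38% and 0% of preadipocyte-like genes.

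Ebf2 was at 200 and 314 CPM in iWAT APC-like cells of WT-Veh, 357 and 456 in ob/ob-Veh and 194 and 226 in ob/ob-Rosi. The ob/ob-Veh libraries were again the highest, and the difference with rosiglitazone was not called (−0.86 ± 0.31, adjusted p = 0.164). Summed immediate early genes in these cells were at 15737 and 17593, 19240 and 19430, and 15341 and 13733 CPM, also highest in ob/ob-Veh. Their part, and that of the make-up of the class, in the Ebf2 difference was not tested. Cebpa was at 20.5 and 24.0, 12.1 and 15.2, and 21.1 and 18.0, with ob/ob-Veh the lowest (−0.81 ± 0.26, adjusted p = 0.207). Klf4 was between 1900 and 2487 in all 6 libraries. Cebpd was at 459 and 1576, 587 and 478, and 495 and 748, and Cebpb at 641 and 1005, 542 and 551, and 340 and 303. WT-Veh replicate 2 was the highest library for both genes, and the ob/ob-Rosi libraries were the lowest for Cebpb. DESeq2, unlike edgeR, called Cebpb lower in ob/ob-Rosi than in WT-Veh in APC-like (−1.36, adjusted p = 0.0164) and progenitor-like cells (−1.28, adjusted p = 0.00564).

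Without WT-Veh replicate 1, the library that stood apart, iWAT Cebpd (−1.67, adjusted p = 0.0259) and Klf15 (−1.86, adjusted p = 0.0421) were called for ob/ob-Veh and Ebf2 for rosiglitazone (−0.86, adjusted p = 0.0476) in APC-like cells. Over all genes 6.33% and 12.1% were called in these fits of ob/ob-Veh and rosiglitazone. The ob/ob-Veh calls rest on WT-Veh replicate 2 alone as the lean library, which is assumed to vary like the libraries of the other groups. The rosiglitazone comparison uses no WT-Veh library, and there the same libraries were compared with the spread estimated without WT-Veh replicate 1. In progenitor-like cells the same omission gave calls of Cebpb (−1.35, adjusted p = 0.0185), Cebpd (−2.08, adjusted p = 0.00925), Klf2 (−1.43, adjusted p = 0.0291) and Klf15 (−1.94, adjusted p = 0.0430) for ob/ob-Veh, and of Klf2 for rosiglitazone (1.37, adjusted p = 0.0136), beside 8.51% and 13.6% of all genes. In preadipocyte-like cells it gave Cebpa for ob/ob-Veh (−1.60, adjusted p = 0.0109) and Klf2 (0.91, adjusted p = 0.0374) and Ebf2 (−0.91, adjusted p = 0.0325) for rosiglitazone, beside 9.41% and 10.7%. A preadipocyte-like cluster of iWAT led by Nnat, Arxes1 and Arxes2 had Cebpa at 91.5 CPM, and 247 of its 281 cells came from WT-Veh replicate 2. With all libraries, 2 of 4 adipocyte RNA genes tested in preadipocyte-like cells of iWAT fell in ob/ob-Veh, beside 0.289% of all genes. The part of either in the Cebpa change was not tested. In iWAT progenitor-like cells Klf2 was at 629 and 1300 CPM in WT-Veh, 590 and 496 in ob/ob-Veh and 951 and 1564 in ob/ob-Rosi, so there ob/ob-Veh was the lowest group.

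The effects in the depots were compared directly by the interaction of depot and group, since a call in eWAT and none in iWAT is no difference in itself. Without the replicate block, no member was called in any of the 6 tests of edgeR. With the block, progenitor-like cells gained a call for obesity and another for the drug, of members not named here. Unadjusted p without the block was under 0.05 for 4, 4 and 1 members in the APC-like, progenitor-like and preadipocyte-like tests of obesity. It was so for 4, 3 and 1 in those of rosiglitazone. DESeq2 called 1, 0 and 0 for the former and 1, 1 and 0 for the latter. Over all genes 0.564%, 0.609% and 0.385% were called for obesity and 0.45%, 0.617% and 0.285% for the drug. Klf2 was the furthest apart, with iWAT minus eWAT differences of −1.88 ± 0.60 for ob/ob-Veh (adjusted p = 0.265) and 1.95 ± 0.60 for rosiglitazone (adjusted p = 0.237) in APC-like cells. In progenitor-like cells its difference for rosiglitazone was 1.99 ± 0.53 (adjusted p = 0.146), the lowest adjusted p among these tests without the block.

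In EC-like cells no member was called by edgeR in either depot without the replicate block. Unadjusted p was under 0.05 for 3, 3 and 0 members in eWAT and 3, 2 and 1 in iWAT, DESeq2 called 0, 1 and 0 in eWAT and none in iWAT, and 3.95%, 4.1% and 0.0906% of all eWAT genes and 0.794%, 0.286% and 0.0635% of iWAT genes were called. With the block, in eWAT, Klf2 (0.78 ± 0.26, adjusted p = 0.0443), Ebf1 (0.77 ± 0.25, adjusted p = 0.0379) and Ebf2 (1.44 ± 0.32, adjusted p = 0.00301) rose in ob/ob-Veh, beside 16.9% of all genes called. With rosiglitazone Klf4 fell by 1.00 ± 0.26 (adjusted p = 0.0119), Zfp423 (−1.26 ± 0.35, adjusted p = 0.0173) and Ebf2 (−1.23 ± 0.29, adjusted p = 0.00504) fell too, and Klf15 rose (1.11 ± 0.36, adjusted p = 0.0413), beside 14.7% of all genes. RNA of other lineages in these EC-like sums differed between the same groups. The summed level of 7 adipocyte genes was 51.9 and 56.1 CPM in WT-Veh, 962 and 914 in ob/ob-Veh and 28.5 and 24.9 in ob/ob-Rosi, most of the ob/ob-Veh sum being Car3 (673 and 638). Dcn, an APC-like marker, was at 642 and 491, 1064 and 964, and 556 and 496 CPM. In eWAT Dcn is not particular to APC-like cells, as it was at 7306 to 14964 CPM in mesothelial-like cells. The adipocyte sum and Dcn of the EC-like cells were both highest in ob/ob-Veh, where macrophage markers were the lowest (6124 and 4863, 2052 and 1408, and 6790 and 5749). The part of this RNA in the EC-like changes was not tested.

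In eWAT mesothelial-like cells 7 members could be tested (not Cebpa, Zfp423 or Ebf2) and none was called, with 2, 0 and 0 at an unadjusted p under 0.05, 0, 0 and 0 called by DESeq2 and 3.66%, 1.37% and 0% of all genes called. With the block Klf4 was called there for ob/ob-Veh (0.99 ± 0.28, adjusted p = 0.0313, with 10.6% of all genes called, and 7.38% for rosiglitazone). Immediate early genes summed there to 3300 and 2264, 9538 and 3339, and 2123 and 1416 CPM and macrophage markers to 4518 and 2402, 643 and 662, and 2736 and 2728, and their part in this call was not tested. Mural-like cells reached 20 in 1 library only and were not tested.

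In eWAT macrophage-like cells 3 of 10 members were called for ob/ob-Veh (27.4% of all genes) and 5 of 10 for rosiglitazone (29%). Klf2 was at 147 and 421 CPM in WT-Veh, 954 and 851 in ob/ob-Veh and 197 and 349 in ob/ob-Rosi. Klf4 was at 228 and 598, 790 and 911, and 258 and 319. Klf2 (1.51 ± 0.44, adjusted p = 0.0308) and Cebpd (1.32 ± 0.26, adjusted p = 0.00673) rose in ob/ob-Veh. Klf2 (−1.50), Cebpd (−1.75) and Klf4 (−1.33) fell with rosiglitazone, and so did Klf15 (−2.42), which was at 0.541 to 4.22 CPM there. No member was called between ob/ob-Rosi and WT-Veh by edgeR or DESeq2, none had an unadjusted p under 0.05, and 0% of all genes were called. The block added Klf4 (1.00 ± 0.28, adjusted p = 0.0173) and Klf15 (1.42 ± 0.48, adjusted p = 0.0373) for ob/ob-Veh and Cebpb for rosiglitazone (−0.73 ± 0.24, adjusted p = 0.0307), beside 33.3% and 35.1% of all genes called. Summed immediate early genes in macrophage-like cells were at 7577 and 10238, 24056 and 21823, and 7563 and 6681 CPM.

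Ebf2 was also called in macrophage-like cells, which should not hold it. It was at 1.77 and 1.37 CPM in lean, 5.63 and 7.85 in obese and 1.86 and 0.854 in drug-treated libraries of eWAT, and in iWAT at 1.44 and 2.97, 26.9 and 48.7, and 3.61 and 4.90. In both depots ob/ob-Veh was the highest group, as in APC-like cells. Ebf2 was also set beside Dcn, a matrix gene of APC-like cells that mesothelial-like cells of eWAT held too. Ebf2 stood at 6.04 and 10.1, 19.8 and 18.9, and 8.13 and 5.48 UMIs per 1000 UMIs of Dcn in eWAT APC-like cells. In macrophage-like cells the ratios were 5.61 and 6.41, 16.5 and 14.4, and 6.67 and 4.08. The Ebf2 ratio in macrophage-like cells was 0.635 to 1.19 times that in APC-like cells of the same library over the 12 libraries of both depots, and the lower in 11. For the other low members the factor was within 2-fold in 4 of 12 libraries for Klf15 (0.838 to 9.69) and in 6 of 12 for Zfp423 (0.909 to 22.1). Whether the Ebf2 UMIs are free RNA, mixed droplets or expression was not tested, and no expression in macrophage-like cells is read from them. The iWAT ratios ran from 14.7 to 33.4 in APC-like and from 10.6 to 39.7 in macrophage-like cells. In iWAT macrophage-like cells Ebf2 was called for ob/ob-Veh (3.74 ± 0.44, adjusted p = 0.00420, with 14% of all genes called) and Ebf2 (−2.89 ± 0.41, adjusted p = 0.00610) and Zfp423 (−2.83 ± 0.66, adjusted p = 0.0208) for rosiglitazone (22.8% of all genes). Zfp423 had 17 and 14 UMIs there in ob/ob-Veh and 10 and 7 in ob/ob-Rosi. It passed the filter on low counts through the ob/ob-Veh libraries, where it was highest. No fall of Zfp423 is therefore read from this call.

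**Figure D5:**
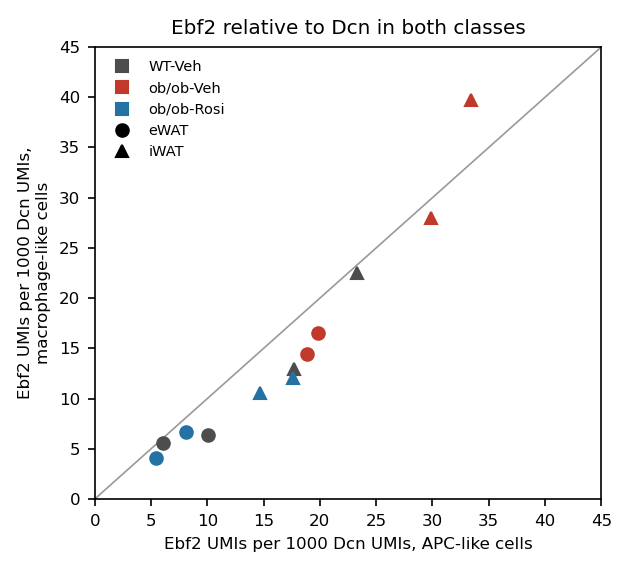
Ebf2 UMIs per 1000 Dcn UMIs in macrophage-like cells (vertical axis) against APC-like cells (horizontal axis), with a point for each of the 12 libraries. Libraries high on one axis are high on the other, and 11 of the 12 lie below the line of equal ratios. The lowest point is eWAT ob/ob-Rosi replicate 2 (5.48 and 4.08), and the highest, iWAT ob/ob-Veh replicate 2 (33.4 and 39.7), is the 1 above the line.

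Effects in APC-like cells were set against those in the other classes by the interaction of class and group. Against EC-like cells 0 and 1 members differed in eWAT for ob/ob-Veh and rosiglitazone (4.33% and 5.04% of all genes) and none in iWAT (0.677% and 0.76%), with 2 members of eWAT and 3 of iWAT at an unadjusted p under 0.05 for ob/ob-Veh and none in iWAT for rosiglitazone. DESeq2 was not run on these differences. The member that differed was Cebpd, whose change with rosiglitazone was the lower in APC-like cells (APC-like minus EC-like −1.18 ± 0.30, adjusted p = 0.0339). It was not called with library size alone (adjusted p = 0.0519), with finer clusters (adjusted p = 0.0644), without ob/ob-Veh replicate 1 (adjusted p = 0.0802) or, at −0.61, without ob/ob-Rosi replicate 2. Against macrophage-like cells 1 and 2 members differed in eWAT (17.7% and 17.8%) and 2 and 3 in iWAT (7.88% and 9.16%), and Cebpd, Klf2 and Klf4 were not among them.

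Among the other regulators of fat cell formation, in eWAT APC-like cells, 2 of 21 promoting factors rose in ob/ob-Veh and none fell (median log2 change 0.18), beside 7.34% of all genes called in either direction. They were Bcl6 (1.27), a transcriptional repressor, and Klf6 (1.24), a repressor of Dlk1. Of 13 restraining factors 2 rose and none fell (median 0.75), namely Sox9 (2.90), which keeps progenitors undifferentiated, and Runx1t1 (1.29). With rosiglitazone Klf6 (−1.18), Sox9 (−2.67) and Runx1t1 (−1.72) fell and no member of either list rose, beside 8.28% of all genes called. The counts of both lists are small, and nothing particular to them is read from these. The median over all genes tested lay between −0.02 and 0.01 in these comparisons.

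Pparg, the receptor that rosiglitazone binds, was at 11.5 and 17.6 CPM in WT-Veh, 4.77 and 8.33 in ob/ob-Veh and 8.30 and 19.2 in ob/ob-Rosi of eWAT. In iWAT it was at 13.7 and 14.0, 2.81 and 8.82, and 18.7 and 15.4. In iWAT ob/ob-Veh was the lowest group, and in eWAT its higher library overlapped ob/ob-Rosi. None of the changes was called (−1.23 ± 0.41, adjusted p = 0.109, and 1.16 ± 0.41, adjusted p = 0.117 in eWAT, and −1.38 ± 0.47, adjusted p = 0.221, and 1.68 ± 0.45, adjusted p = 0.0919 in iWAT).

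Of 17 target genes of PPARγ and C/EBPα tested in eWAT, 3 fell in ob/ob-Veh and none rose (median −0.82), beside 7.34% of all genes called. These were the lipid droplet protein Plin2 (−2.13), the fatty acid carrier Fabp4 (−2.13) and lipoprotein lipase, Lpl (−1.24). Plin2 rose with rosiglitazone (1.80), the only one of the list to do so (median 0.23, beside 8.28% of all genes called). In iWAT 2 of 20 fell in ob/ob-Veh, Plin1 (−5.35) and Plin2 (−1.78), with a median of −1.65 and 0.357% of all genes called, and none was called with rosiglitazone by edgeR (median 1.11, with 16 of 20 above 0 and 8 at an unadjusted p under 0.05, beside 1.63% of all genes called). RNA of mature adipocytes summed to 135 and 155, 20.9 and 51.5, and 45.6 and 43.7 CPM in iWAT APC-like cells. That list itself holds Plin1, so the sum is no separate measure of it. Plin1 was at 6.16 and 5.81 CPM in WT-Veh, 0.0586 and 0.257 in ob/ob-Veh and 0.386 and 0.528 in ob/ob-Rosi. Its change thus rests on few UMIs, and the part of adipocyte RNA in it was not tested. In the list of adipocyte RNA itself 1 gene rose (Car3) and 1 fell (Plin4) of 5 in ob/ob-Veh of eWAT, where the sums were 16.0 and 59.1, 19.4 and 28.6, and 8.43 and 9.93.

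Glucocorticoids are part of the hormone mix that induces Cebpd and Klf9. Of 14 glucocorticoid-induced genes in eWAT APC-like cells 2 rose in ob/ob-Veh, Sult1e1 (5.12), a sulfotransferase that inactivates oestrogen, and Dusp1 (1.62), a phosphatase that is also an immediate early gene. Both fell with rosiglitazone (−4.99 and −1.19), and the shares of all genes called were 7.34% and 8.28%. In iWAT Lcn2 (2.32), a secreted lipocalin, rose with rosiglitazone, and in ob/ob-Veh none was called. Of the immediate early genes 3 fell with rosiglitazone in iWAT, Myc (−1.63), Hspa1b (−1.53) and Hspa1a (−1.29), beside 1.63% of all genes called. No gene of any of these lists was called between ob/ob-Rosi and WT-Veh in APC-like cells of either depot, where 0% of all genes were called. The absence of calls there does not show lean levels. For targets of PPARγ and C/EBPα the median log2 difference was −0.42 in eWAT (3 of 17 above 0) and −0.63 in iWAT (1 of 20 above 0).

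Likeness of pattern was taken over 20 class means of both depots. These hold APC-like cells as a whole and again as progenitor-like and preadipocyte-like cells, so stromal cells weigh more than once. Among 12820 genes, those whose log2(CPM + 1) pattern was most like that of a member were Thbs2 and Prrx1 for Ebf2 (r = 0.98 for each), Npdc1 (0.98) and Fkbp10 (0.97) for Klf15, and Per3 (0.96) and Thra (0.94) for Klf9. They were Npr2 and Tek for Zfp423 (0.95 for each), Kctd11 (0.94) and Lama2 (0.93) for Cebpd and Zfp655 (0.90) and Ugdh (0.89) for Klf4. For Cebpa, Klf2, Cebpb and Ebf1 the likeness was lower. Those of Cebpa were 4930589L23Rik (0.88) and Zfand5 (0.86), and those of Klf2 were Trim30d (0.86) and Gadd45a (0.84). Cebpb was followed by Pgd (0.85) and Mrpl33 (0.83), and Ebf1 by Ly6a and Nsg1 (0.85 for each).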

How the data were processed

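Single-cell RNA sequencing of the stromal vascular fraction was analysed in 12 libraries. Per the labels and the submitters' processing notes, the authors demultiplexed reads with bcl2fastq 2.19.1.403 and counted UMIs with Cell Ranger 3.0.2 on mm10, and deposited raw UMI counts per gene and barcode, not normalized and not pooled. No column of other samples was present. Raw UMI totals set the precision. The ± values are standard errors derived from the log2 change and the F statistic of edgeR's quasi-likelihood test. Its estimate of the spread between libraries is moderated over all genes, so they are not a gene's own spread alone. The labels call the samples of a group biological replicates.

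After the study's methods, cells with 700 to 22000 UMIs, 200 to 6000 genes and under 25% mitochondrial UMIs were retained. The 2000 most variable genes other than the members, 25 components (15 for APC-like cells) and 20 neighbours were used for Leiden clustering (leidenalg 0.10.2) at resolution 1 (0.6 for APC-like cells). Clusters were named from marker lists. The naming rule was changed in details once clusters had been seen, before groups were compared. No doublet caller was run. As an alternative, called mixed droplets left out, APC-like droplets with any UMI of a few macrophage, endothelial or T-cell marker genes were dropped. That setting also drops cells with free RNA of these genes, and deeper cells more often, so it is no removal of doublets alone. It drops more cells where macrophage RNA is higher, as in WT-Veh and ob/ob-Rosi of eWAT. Libraries were not integrated.

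UMIs were summed per library and class (20 cells or more) and fitted in edgeR 4.0.16 (R 4.3.3, TMM, filterByExpr, quasi-likelihood test, group only, 3 residual degrees of freedom). Calls needed an adjusted p up to 0.05 over all genes and at least a 1.1-fold change. Differences between classes had the library as a block. An exact two-sided permutation test of 2 against 2 libraries cannot go below p = 0.33 and was not used. In eWAT, samples of the same replicate number deviated from their group means together (correlations of 0.297, 0.298 and 0.199 in APC-like cells, and over 0.1 in every class), a pairing seen in the data and not given by the labels, so fits with the number as a block are given where they change a call. The alternatives were DESeq2 1.42.0, other normalization, no filter on low counts, a replicate block, other clusterings, cells assigned singly, thinned cells and each library left out.

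The members and gene lists were chosen with earlier results of these data known. The genes named are the 10 members, Pparg, Lep and Adipoq, up to 4 called genes per direction of each list, and the 2 genes most like each member. Other genes or cluster leaders were named after their values were seen.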

Additional observations from a re-analysis of the deposited data

Results flagged for a closer look

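An effect was compared between APC-like cells and another class of the same libraries by a test of the interaction of class and group (edgeR, library as a block), and 9 differences of members passed. Against EC-like cells of eWAT, Cebpd differed for rosiglitazone (APC-like minus EC-like −1.18 ± 0.30 on the log2 scale, adjusted p = 0.0339). Over all genes 4.33% and 5.04% were called for ob/ob-Veh and rosiglitazone in this pair of classes, and no member for ob/ob-Veh (2 at an unadjusted p under 0.05). In iWAT no member was called in this pair (3 and 0 at an unadjusted p under 0.05, with 0.677% and 0.760% of all genes called).

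Against macrophage-like cells of eWAT, Klf15 differed for ob/ob-Veh (−1.50 ± 0.41, adjusted p = 0.0311) and for rosiglitazone (2.73 ± 0.44, adjusted p = 0.00338), and Cebpa for rosiglitazone (−0.80 ± 0.21, adjusted p = 0.0273). Over all genes 17.7% and 17.8% were called. In iWAT, Klf15 (−2.28 ± 0.37, adjusted p = 0.00358) and Ebf2 (−3.28 ± 0.29, adjusted p = 0.000145) differed for ob/ob-Veh, and Klf15 (1.98 ± 0.35, adjusted p = 0.00710), Zfp423 (2.41 ± 0.57, adjusted p = 0.0266) and Ebf2 (2.03 ± 0.26, adjusted p = 0.00206) for rosiglitazone, with 7.88% and 9.16% of all genes called. Klf15 was at 0.541 to 4.22 CPM in eWAT and 0.749 to 4.26 in iWAT macrophage-like libraries, and Zfp423 at 0.252 to 3.14 in those of iWAT, so the differences of these genes rest on few UMIs in macrophage-like cells. Ebf2 in iWAT macrophage-like cells reached 26.9 and 48.7 CPM (156 and 217 UMIs) in ob/ob-Veh, against 1.44 to 4.90 in the other libraries, and its ratio to Dcn was 0.635 to 1.19 times that of APC-like cells over the libraries of both depots. Of 12 alternatives the Cebpa difference was called in 3 and that of Cebpd in 8. The differences of Klf15 for ob/ob-Veh were called in 10 in each depot, that of iWAT Klf15 for rosiglitazone in 9 and that of Zfp423 in 10, and those of Ebf2 and of eWAT Klf15 for rosiglitazone in all 12.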

How the results depend on the processing

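Counts of called members were recomputed 531 times over 33 counts, of which 424 stayed within 1.5 times. Of 2850 changes of single members 2754 kept their call, 33 lost and 58 gained one, and 5 turned. The 2645 that were uncalled in both settings count as kept, 218 of them with another sign.

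Those that turned were in eWAT preadipocyte-like cells. With cells assigned singly Klf2 gave 1.15 for ob/ob-Veh and −0.85 for rosiglitazone. With the preadipocyte-like class widened to every APC-like cell outside the progenitor-like class, chosen after seeing the data, Klf2 gave −0.69 for rosiglitazone. Cebpd for ob/ob-Veh gave 1.31 and 1.09 under these settings.

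In eWAT APC-like cells (2 members called for each comparison) DESeq2 called 4 and 4, no filter on low counts 4 and 4, cells assigned singly and finer clusters 1 for ob/ob-Veh, the replicate block 4 and the omission of mixed droplets 1 for rosiglitazone. In eWAT progenitor-like cells (1 and 1) no filter, with which Zfp423 was tested too, gave 4 and 2. Coarser clusters gave 2 and 2 and library size alone 0 for ob/ob-Veh. For rosiglitazone, cells assigned singly and the block gave 2. Leaving mixed droplets out kept 1 library each in WT-Veh and ob/ob-Rosi there, so its counts are not compared. In eWAT preadipocyte-like cells (1 and 2) ob/ob-Veh gave 2 with DESeq2, no filter, finer clusters and widened clusters and 3 with cells assigned singly, and rosiglitazone 1 with library size alone, thinned cells and mixed droplets left out. In iWAT (0 throughout) DESeq2 called 1 in APC-like cells (ob/ob-Rosi against WT-Veh), 1, 1 and 1 in progenitor-like and 1 in preadipocyte-like cells (rosiglitazone). No filter called 1, 1 and 1 in APC-like, 2 and 1 in progenitor-like and 1 and 1 in preadipocyte-like cells, and the block 1 in preadipocyte-like cells (rosiglitazone).

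Depot differences (0) became 1 and 1 in APC-like and 1 in progenitor-like cells (rosiglitazone) with DESeq2, 2 and 2, and 3 and 2, without a filter, and 1 and 1 in progenitor-like cells with the block. The class difference of eWAT APC-like and EC-like cells (0 and 1) was 1 and 2 without a filter, 1 and 0 with library size alone and 0 for rosiglitazone with finer clusters. That with macrophage-like cells for rosiglitazone (2) was 1 with finer clusters, coarser clusters, library size alone and thinned cells, and in iWAT for ob/ob-Veh (2) it was 5 without a filter. Calls in other classes (11) were 28 without a filter and 25 with the block. The causes of these changes were not tested. For most of these settings the shares of all genes called are not reported here. No rise or fall in these counts, or in those with a library left out, is thus read as a result about the members.

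With each library left out, counts ran from 0 to 2 for both comparisons in eWAT APC-like and preadipocyte-like cells, and from 0 to 1 and 0 to 2 in progenitor-like cells. In iWAT they ran from 0 to 2 and 0 to 1, 0 to 4 and 0 to 1, and 0 to 1 and 0 to 2 in the classes named above, and they were 0 for ob/ob-Rosi against WT-Veh in all. Depot differences ran from 0 to 1 and 0, 0 to 2 and 0 to 1, and 0. Class differences ran from 0 and 0 to 2 (eWAT EC-like), 0 to 1 and 1 to 2 (eWAT macrophage-like), 0 to 1 and 0 (iWAT EC-like) and 1 to 5 and 1 to 3 (iWAT macrophage-like), and calls in other classes from 4 to 18.

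In iWAT APC-like cells, deviations of same-numbered samples from the group means correlated at 0.531 between WT-Veh and ob/ob-Rosi. They correlated at 0.00712 between WT-Veh and ob/ob-Veh and at −0.0257 between ob/ob-Veh and ob/ob-Rosi. Same-numbered WT-Veh and ob/ob-Rosi samples thus deviated together (0.237 in EC-like to 0.597 in macrophage-like cells), and those of ob/ob-Veh with neither. In iWAT the block added Ebf2 in EC-like cells (1.55 and −1.35) and Zfp423 for ob/ob-Veh in macrophage-like cells (2.30). The shares of all genes called in these fits are not reported here. Dcn in the EC-like sums was at 408 and 156 CPM in WT-Veh, 1151 and 1202 in ob/ob-Veh, and 331 and 522 in ob/ob-Rosi. Zfp423 had 5 and 7 UMIs in WT-Veh and 17 and 14 in ob/ob-Veh macrophage-like cells, and passed the filter on low counts through the latter. The part of RNA of other cells in these changes was not tested. In eWAT the block changed no call of a member in any class beyond those printed beside the results.

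With 3 residual degrees of freedom a change that missed the threshold is not shown to be absent. Zfp423, Klf15 and Cebpa rest on few UMIs per cell.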
